A study of Mus musculus with 6 samples.

Results

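The 83 genes described here code for heat shock proteins, their J-domain partners and related chaperones. They are the protein-coding genes, by the biotype in the deposited tables, whose symbol starts with Hspa, Hspb, Hspd, Hspe, Hsph, Hsp90, Dnaja, Dnajb, Dnajc, Cct plus a digit or Bag plus a digit, together with *Hsf1* and *Hsf2*, and that had at least 10 counts summed over 6 libraries. Of 85 such rows, 83 passed that minimum, among 14776 protein-coding genes that did. *Cct8l1* with 0 counts and *Dnajc6* with 2 counts did not pass. The libraries are bulk RNA-seq of tumor-associated macrophages (TAMs) sorted by flow cytometry on day 21 from intradermal YUMM1.7 melanomas, a mouse melanoma line. The hosts were wild-type C57Bl/6J females, 8 weeks old when tumors were started and left untreated. Both sorted fractions, F4/80high and F4/80low, carried the myeloid marker CD11b, and F4/80 is the surface protein encoded by *Adgre1*. Each fraction gave 3 libraries, numbered 1 to 3, and both libraries of one number came from one of 3 independent experiments. A library is thus a pool of sorted cells and not a single mouse.

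Chaperones bind unfolded chains and let them fold without clumping. HSP70 proteins take up and release clients in an ATP cycle that J-domain (DNAJ) proteins start and that nucleotide exchange factors of the BAG and HSP110 families reset, HSP90 finishes kinases and receptors, and the CCT ring folds actin and tubulin. In a heat shock the factor HSF1 binds inverted GAA units in promoters and drives the inducible genes, whereas stress in the endoplasmic reticulum (ER) acts on ER chaperone genes through the ER stress element. Tissue digestion and cell sorting are themselves known to induce heat shock genes in macrophages.

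Promoter stretches are shown first, since the letters that HSF1 and the ER stress response read set apart the groups of genes whose values are followed below. All come from RefSeq on GRCm38.p6, are written along the gene's strand and count positions from 1 at the gene's start, and capitals mark the motif. In the first set they mark the GAA and TTC units of the heat shock element. *Hspa1a* and *Hspa1b*, the stress-inducible HSP70 genes, hold the same 70 bases at chr17:34972228-34972297 (minus strand) and chr17:34959310-34959379 (minus strand). *Hspd1* and *Hspe1*, which code for the mitochondrial chaperonin and its lid, lie head to head and read the same element on opposite strands, at chr1:55088034-55088103 (minus strand) and chr1:55088032-55088101 (plus strand). *Hsph1*, an HSP110, holds its element just after the start, at chr5:149636279-149636308 (minus strand), *Dnajb6* at chr5:29735820-29735889 (plus strand) and *Dnaja1* at chr4:40722307-40722376 (plus strand).
Hspa1a: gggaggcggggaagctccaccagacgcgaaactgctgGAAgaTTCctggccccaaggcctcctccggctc
Hspa1b: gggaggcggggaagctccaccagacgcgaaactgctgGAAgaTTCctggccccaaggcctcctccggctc
Hspd1: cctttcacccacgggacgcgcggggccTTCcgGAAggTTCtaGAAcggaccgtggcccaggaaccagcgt
Hspe1: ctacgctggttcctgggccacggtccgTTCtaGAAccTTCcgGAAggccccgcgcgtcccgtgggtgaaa
Hsph1: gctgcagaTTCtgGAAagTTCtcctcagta
Dnajb6: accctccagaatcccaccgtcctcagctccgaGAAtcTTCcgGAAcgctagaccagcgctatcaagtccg
Dnaja1: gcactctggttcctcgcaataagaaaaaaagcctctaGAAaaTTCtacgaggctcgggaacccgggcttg

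The second set holds the ER stress element, written as CCAAT, 9 bases and CCACG on either strand, which in *Hsp90b1* is read here as its reverse complement. The windows lie at chr2:34771999-34772068 (plus strand) for *Hspa5*, the ER HSP70 (BiP), at chr10:86705508-86705577 (minus strand) for *Hsp90b1*, the ER HSP90 (GRP94), and at chr14:118937801-118937870 (plus strand) for *Dnajc3*, an ER J-domain protein.
Hspa5: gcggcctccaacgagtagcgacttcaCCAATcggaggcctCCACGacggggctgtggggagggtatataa
Hsp90b1: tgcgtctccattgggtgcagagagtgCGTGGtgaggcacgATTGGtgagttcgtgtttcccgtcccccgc
Dnajc3: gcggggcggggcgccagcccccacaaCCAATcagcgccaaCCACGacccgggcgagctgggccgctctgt

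A RefSeq promoter, 250 bases before the start and 50 after it, was read for 68 of the 83 genes, and none was read for the other 15, among them *Hspa8*, *Hspa9*, *Hsp90aa1*, *Hsp90ab1* and *Hsf1*. On either strand, GAANNTTC stood in 14 of the 68 (20.6%) and in 9.04% of 27025 genes with a promoter. The 3-unit form GAANNTTCNNGAA, which contains it, stood in 4 of 68 (5.88%, *Dnajb6*, *Hspd1*, *Hspe1* and *Hsph1*) and in 0.662% of all. The ER stress element stood in 3 of 68 (4.41%) and in 0.137% of all. A match describes letters and not a bound site. In *Dnajb1*, whose promoter was read, the spaced units were not in the window in either form.

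The libraries held 16045281 to 43604373 counts, and both replicate 3 libraries stood apart from the other 4. In them *Lars2*, *Gm23935* and *Gm15564* took 17.1% and 16.1% of counts, against 0.378% to 0.609% elsewhere, and the 83 genes made up 0.511% and 0.422% of protein-coding counts, against 0.939% to 1.12% elsewhere. Levels are given as counts scaled to the TMM-normalized library size (CPM), always in the order of replicates 1, 2 and 3, and also divided by exon length (RPKM) where genes are compared with each other. *Adgre1*, which should follow the sort, measured 273, 539 and 359.9 CPM in F4/80high and 243, 326 and 183 CPM in F4/80low TAMs, a log2 fold change of 0.62 (SE 0.21, adjusted p = 0.35), and was higher in F4/80high TAMs in each pair. Of 8 macrophage markers, 7 had positive log2 fold changes and 1, *Itgam* at -0.23, a negative one, with a median of 0.48. In all 3 pairs 4 of the 8 were higher in F4/80high TAMs. An unadjusted p under 0.05 was found in 4, all higher in F4/80high TAMs. All 9 neutrophil and all 7 eosinophil markers had negative log2 fold changes, with summed levels of 656 to 1854 and 89.8 to 177 CPM in F4/80high and 1368 to 3986 and 251 to 603 CPM in F4/80low TAMs. Dendritic cell markers (7 of 7, median -0.79) and those of mast cells and basophils (5 of 5, median -1.41) were negative as well. All 7 T and NK cell markers had positive fitted values, with a median of 0.70 and summed levels of 131 to 1049 CPM in F4/80high and 60.2 to 458 CPM in F4/80low TAMs. Their medians were 1.63, -0.76 and 1.25 in pairs 1, 2 and 3, and 0 of the 7 were higher in F4/80high TAMs in all 3 pairs. The part of these cells in the chaperone values was not tested. Of 7 melanoma markers, *Tyr*, *Tyrp1* and *Dct* were not listed among the deposited genes, so their level is unknown. *Mlana* had 1 count over the 6 libraries, and *Pmel* had at most 1.81 CPM. *Mitf*, which macrophages are also known to express, measured 16.5, 21.5 and 167 CPM in F4/80high and 13.3, 11.4 and 104 CPM in F4/80low TAMs and was higher in F4/80high TAMs in each pair, at 0.64 (SE 0.22, adjusted p = 0.373). In bulk RNA, fewer cells that express a gene and less of its RNA per cell cannot be told apart.

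The subsets were compared within replicate pairs to ask whether the TAMs that differ in F4/80 also differ in chaperone expression. None of the 83 genes passed the thresholds (in edgeR's quasi-likelihood test, a Benjamini-Hochberg adjusted p under 0.05 together with a log2 fold change beyond -1 or 1), against 76 of 14776 genes (0.514%). The lowest adjusted p was 0.472, for *Hsph1*, which was also the one gene of the 83 (1.20%) with an unadjusted p under 0.05, against 9.84% of all genes tested. The median log2 fold change of the 83 was 0.12, with 0.13, 0.08 and 0.21 in pairs 1, 2 and 3, and the median of all genes tested was -0.0046. Positive values stood at 53 genes and negative ones at 30. In 24 genes (28.9%) the difference had one direction in all 3 pairs, against 34.0% of all genes, and in 19 of the 24 that direction was higher in F4/80high TAMs (22.9%, against 16.0% of all genes). The 3 libraries of one subset all lay above those of the other in 3 genes (3.61%, against 5.16% of all), *Dnajc3*, which was higher in F4/80high TAMs, and *Hspa2* and *Hspbap1*, which were lower. The 95% interval of the log2 fold change lay between -1 and 1 in 52 of the 83 genes, and in 34 of the 37 with at least 10 RPKM, while in the other 31 it reached past a 2-fold difference in at least one direction.

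**Figure D1:**
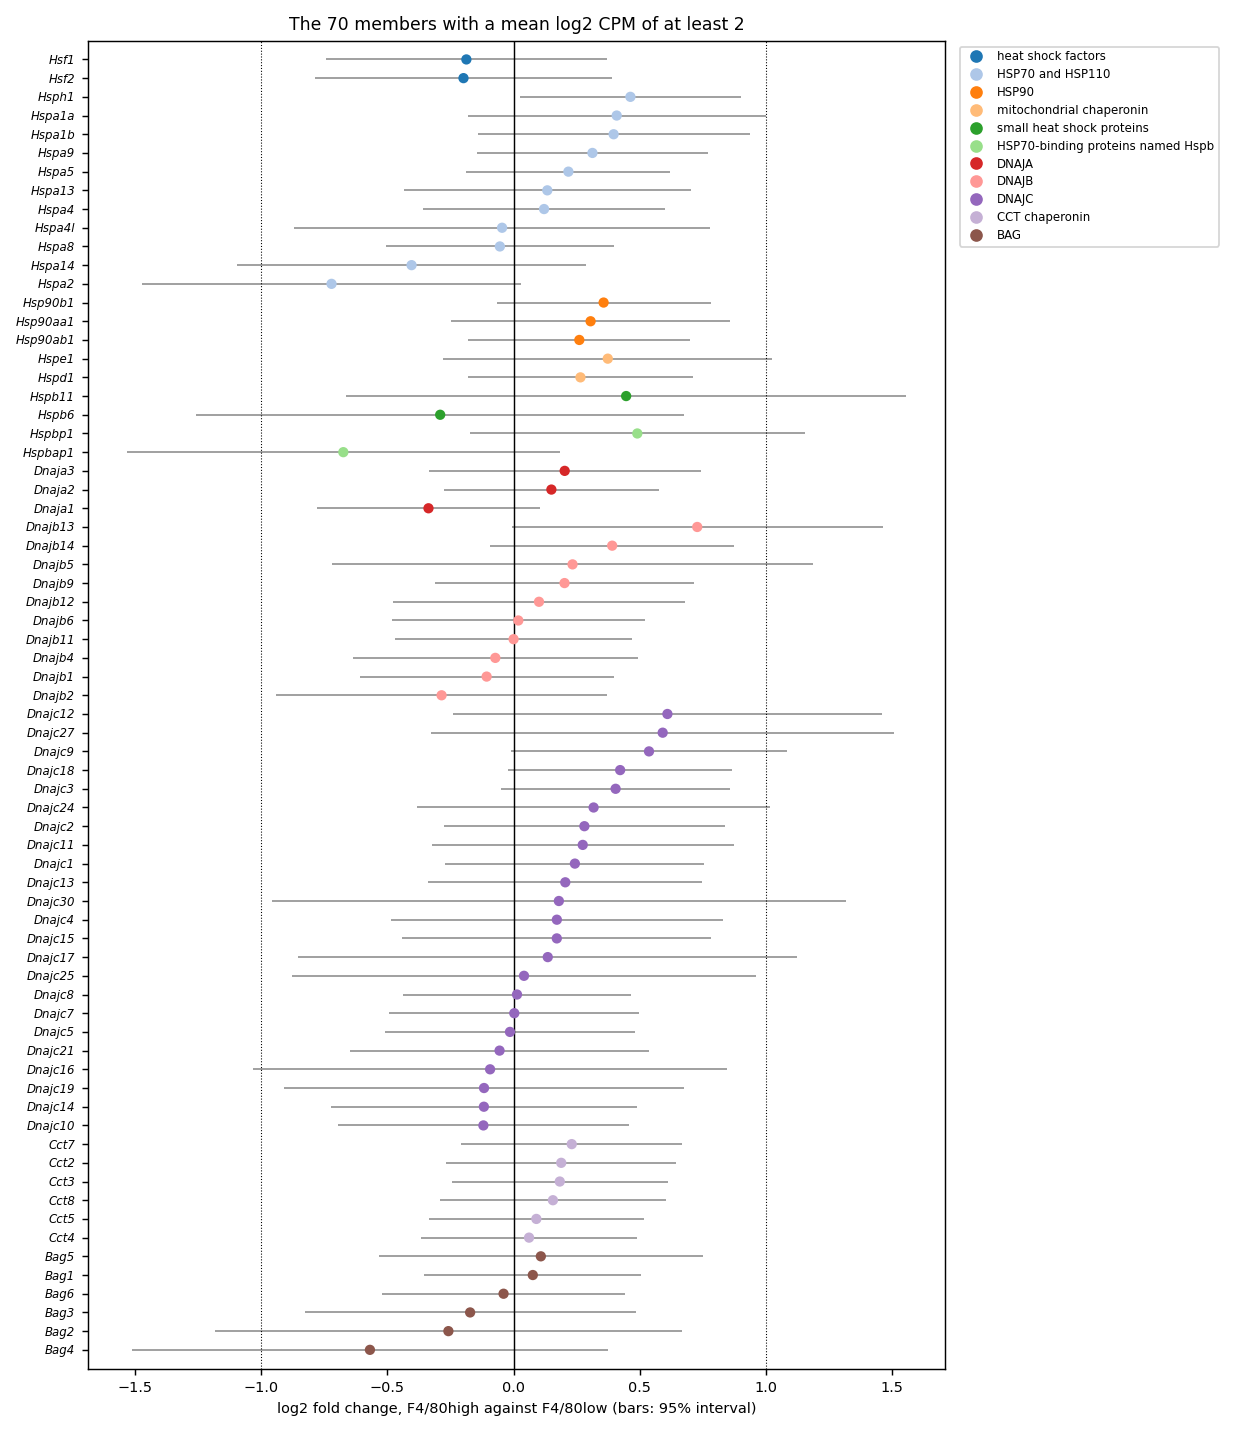
Log2 fold change of F4/80high against F4/80low TAMs (horizontal axis) with its 95% interval for the 70 genes whose log2 CPM averaged 2 or more, from the edgeR fit with 3 replicate pairs, coloured by role, with dotted lines at -1 and 1. The interval excludes 0 in *Hsph1* alone, and 48 of the 70 points lie to the right of 0.

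Per kilobase of exon, the order of levels was led by the same 3 genes in both subsets. *Hsp90ab1*, the constitutive cytosolic HSP90, measured 355 ± 226 RPKM in F4/80high and 282 ± 134 RPKM in F4/80low TAMs (SD, n = 3 each), *Hspa5* 221 ± 139 and 189.7 ± 124 RPKM, and *Hspa8*, the constitutive cytosolic HSP70, 191 ± 91.3 and 185 ± 55.3 RPKM. The spreads of these neighbours overlapped in each subset. *Cct2*, *Bag1*, *Hsp90aa1* and *Hsp90b1* followed with means over the 6 libraries of 94.3, 92.8, 92.00 and 75.3 RPKM. At the other end, 11 genes had a mean under 1 RPKM, among them the testis-type genes *Hspa1l* and *Dnajb3* and the small heat shock genes *Hspb7*, *Hspb8* and *Hspb9*.

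**Figure D2:**
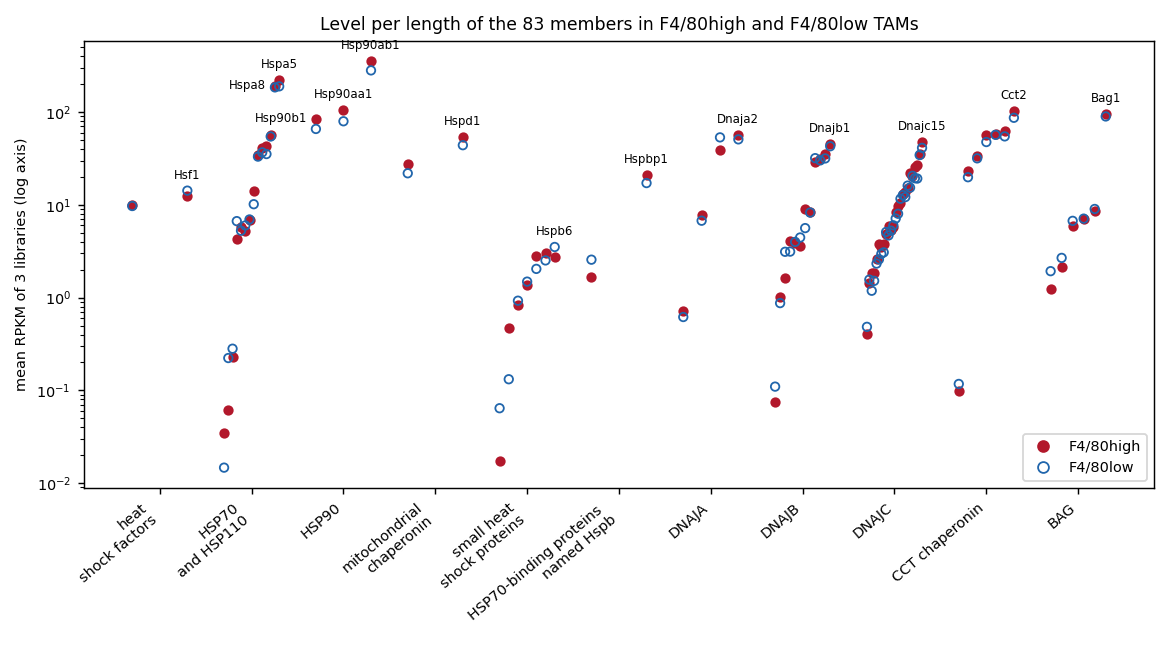
Mean RPKM of 3 libraries (vertical log axis) of each of the 83 genes in F4/80high (filled) and F4/80low (open) TAMs, grouped by role and ordered by level within a group, with the leading genes named. The HSP90 genes lie between 75.3 and 318 RPKM averaged over both subsets and the small heat shock genes between 0.0407 and 3.12 RPKM.

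The order of the 2 heat shock factors in level turned between experiments, *Hsf1* being the higher in replicates 1 and 2 and *Hsf2* in replicate 3, and neither differed between subsets beyond the replicate spread. *Hsf1*, the main factor of the heat shock response, measured 35.03, 26.2 and 13.8 CPM in F4/80high and 36.9, 34.9 and 14.5 CPM in F4/80low TAMs. It was lower in F4/80high TAMs in each of the 3 pairs, with a log2 fold change of -0.19 with a 95% interval of -0.74 to 0.37 (adjusted p = 0.867). *Hsf2*, which binds the same element and is linked to development, measured 4.28, 2.97 and 71.6 CPM in F4/80high and 4.86, 4.27 and 67.1 CPM in F4/80low TAMs. Its values in replicate 3 were more than 10 times those of the other experiments in both subsets, whereas its log2 fold change between subsets was -0.20 (SE 0.26, adjusted p = 0.865).

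Of 14 HSP70 and HSP110 genes, 8 had positive and 6 negative log2 fold changes, and 1 had an unadjusted p under 0.05. That gene was *Hsph1*, an HSP110 that resets HSP70 by exchanging its nucleotide, at 88.6, 47.6 and 171 CPM in F4/80high and 63.2, 35.4 and 123 CPM in F4/80low TAMs. F4/80high TAMs were higher in each pair, by 0.49, 0.43 and 0.47 on the log2 scale, while the libraries of the 2 subsets overlapped, since each experiment had a level of its own. The fitted difference was 0.46 (SE 0.19, adjusted p = 0.472), an unadjusted p of 0.0401 and a 1.38-fold higher level. *Hspa1a*, a stress-inducible HSP70, measured 176, 99.8 and 33.1 CPM in F4/80high and 213, 64.8 and 17.5 CPM in F4/80low TAMs. Its near copy *Hspa1b* measured 323, 122 and 26.2 CPM in F4/80high and 359, 85.6 and 14.2 CPM in F4/80low TAMs. Both were lower in F4/80high TAMs in pair 1 and higher in pairs 2 and 3, with log2 fold changes of 0.41 (SE 0.26, adjusted p = 0.681) and 0.40 (SE 0.24, adjusted p = 0.659). These sizes depend on the fit, since they were 0.0644 and 0.0384 with no replicate block and 0.77 and 0.69 without replicate 1. Their coding sequences in the GENCODE M21 annotation were identical at 1915 of 1923 aligned bases (99.58%), and 82.4% of the 50-base stretches of *Hspa1a* also occur in *Hspa1b*, so the split of reads between them is uncertain. Summed over both genes the levels were 499, 222 and 59.4 CPM in F4/80high and 572, 150.4 and 31.8 CPM in F4/80low TAMs, and the log2 difference was -0.20, 0.56 and 0.90 in pairs 1, 2 and 3. Opposite *Hspa1a*, the gene *Gm20481* covers 19.0% of its exon bases, and whether counting used the strand is not given in the sources used here.

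Of the constitutive HSP70 genes, *Hspa8* and *Hspa5* were among the most abundant of the 83 per kilobase of exon. Neither these nor *Hspa9* passed the thresholds between subsets. *Hspa8*, which folds new chains and uncoats clathrin vesicles, measured 1065, 952 and 358 CPM in F4/80high and 937, 859.6 and 506 CPM in F4/80low TAMs. Its log2 fold change was -0.05 with a 95% interval of -0.51 to 0.40 (adjusted p = 0.964), with F4/80high TAMs higher in pairs 1 and 2 and lower in pair 3. *Hspa5*, the ER chaperone BiP, measured 1271, 1271 and 255 CPM in F4/80high and 1253, 927 and 226 CPM in F4/80low TAMs. It was higher in F4/80high TAMs in all 3 pairs, in pair 1 by 0.02 on the log2 scale only, and the log2 fold change was 0.22 with a 95% interval of -0.19 to 0.62 (adjusted p = 0.754). *Hspa9*, the mitochondrial HSP70 that pulls proteins into the matrix, measured 152, 232 and 124 CPM in F4/80high and 150.1, 185 and 81.9 CPM in F4/80low TAMs. It too was higher in F4/80high TAMs in each pair, in pair 1 by 0.015 on the log2 scale only, at 0.31 (SE 0.20, adjusted p = 0.684).

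Lower values in F4/80high TAMs were seen in *Hspa2* and *Hspa14*. *Hspa2*, an HSP70 known best from spermatogenesis, measured 13.9, 5.78 and 12.96 CPM in F4/80high and 16.3, 14.6 and 19.6 CPM in F4/80low TAMs. All 3 F4/80high libraries lay below all 3 F4/80low libraries, and the log2 fold change was -0.72 (SE 0.33, adjusted p = 0.534). *Hspa14*, an HSP70 that works at the ribosome, measured 55.2, 60.03 and 12.2 CPM in F4/80high and 52.8, 61.9 and 30.7 CPM in F4/80low TAMs with a log2 fold change of -0.40 (SE 0.31, adjusted p = 0.732), which became 0.012 without replicate 3. The gene model under this row's identifier is named *Gm45902* in M21. The other 6 genes of this family, *Hspa4*, *Hspa4l*, *Hspa13*, *Hspa12a*, *Hspa12b* and *Hspa1l*, had adjusted p of 0.845 or more.

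The 3 HSP90 genes were all higher in F4/80high TAMs in replicates 1 and 3, and none passed the test. *Hsp90aa1*, the inducible cytosolic form, measured 350.0, 269 and 611 CPM in F4/80high and 281, 330.1 and 329 CPM in F4/80low TAMs. The single high value was F4/80high replicate 3, and the other 5 libraries lay between 269 and 350.0 CPM. Without replicate 3 its log2 fold change was 0.0129. *Hsp90ab1*, the constitutive form, measured 726, 624 and 1845 CPM in F4/80high and 538, 696 and 1301 CPM in F4/80low TAMs, with both replicate 3 libraries above the other 4. *Hsp90b1*, which folds integrins and Toll-like receptors in the ER, measured 301, 494 and 231 CPM in F4/80high and 276, 352 and 168 CPM in F4/80low TAMs and was higher in F4/80high TAMs in each pair. The log2 fold changes were 0.31 with a 95% interval of -0.25 to 0.86 (adjusted p = 0.747), 0.26 with a 95% interval of -0.18 to 0.70 (adjusted p = 0.727) and 0.36 with a 95% interval of -0.07 to 0.78 (adjusted p = 0.605). In the mitochondrion, *Hspd1* (HSP60) measured 156, 174 and 94.5 CPM in F4/80high and 111, 145 and 92.1 CPM in F4/80low TAMs. Its lid *Hspe1* (HSP10) measured 49.5, 36.2 and 37.1 CPM in F4/80high and 25.4, 44.3 and 27.2 CPM in F4/80low TAMs. *Hspd1* was higher in F4/80high TAMs in 3 of 3 pairs and *Hspe1* in 2 of 3, with log2 fold changes of 0.27 (SE 0.20, adjusted p = 0.727) and 0.37 (SE 0.29, adjusted p = 0.735), the second being 0.0719 without replicate 1.

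**Figure D3:**
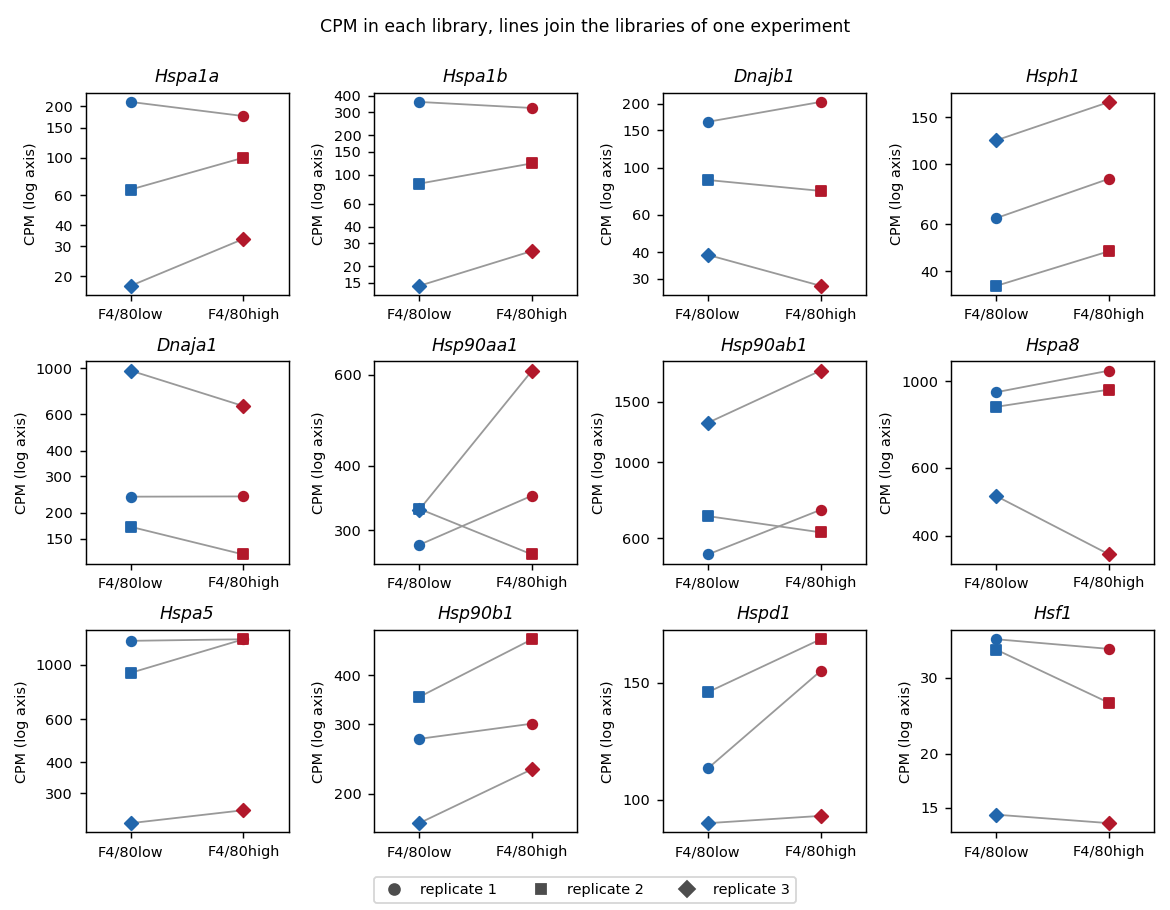
CPM (vertical log axis, scaled for each gene) of 12 genes, *Hsf1* among them, in F4/80low (left) and F4/80high (right) TAMs, with lines joining the 2 libraries of one experiment and a symbol for each replicate number. In *Hsph1* the 3 lines rise in parallel from levels that differ between experiments, and in *Hspa1a*, *Hspa1b* and *Dnajb1* the experiments lie further apart than the subsets.

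Small heat shock proteins hold unfolding chains without ATP, and their genes were the least abundant group. *Hspb1* (HSP25), the best known of them, measured 3.93, 5.10 and 0.324 CPM in F4/80high and 1.53, 6.26 and 0 CPM in F4/80low TAMs. It was nearly absent in both replicate 3 libraries, and the subsets crossed between pairs 1 and 2, with a log2 fold change of 0.89 with a 95% interval of -0.91 to 2.68 (adjusted p = 0.772). *Hspb6* measured 8.64, 7.93 and 2.16 CPM in F4/80high and 6.71, 14.8 and 2.73 CPM in F4/80low TAMs, at -0.29 (SE 0.43, adjusted p = 0.884). *Hspb11*, which belongs by its known function to the transport complex of cilia, measured 5.44, 4.48 and 7.45 CPM in F4/80high and 3.51, 5.65 and 3.53 CPM in F4/80low TAMs, at 0.45 (SE 0.49, adjusted p = 0.826). *Hspb8* was at 4 and 15 counts in the replicate 1 libraries of F4/80high and F4/80low TAMs and at 0 in the other 4, so no difference was detectable at this depth. Of the 7 genes, 3 had positive and 4 negative log2 fold changes, and the intervals of all 7 reached past -1 or 1. *Hspbp1*, a nucleotide exchange factor of HSP70, measured 38.1, 41.9 and 13.1 CPM in F4/80high and 27.96, 42.9 and 5.81 CPM in F4/80low TAMs, and *Hspbap1*, a protein that binds HSPB1, measured 10.2, 8.23 and 4.53 CPM in F4/80high and 11.7, 11.6 and 12.1 CPM in F4/80low TAMs. The 2 had opposite signs, *Hspbp1* at 0.49 (SE 0.29, adjusted p = 0.656) and *Hspbap1*, whose F4/80high libraries all lay below the F4/80low ones, at -0.67 (SE 0.38, adjusted p = 0.633).

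Among the DNAJA and DNAJB genes, which code for general partners of HSP70, none of 16 had an unadjusted p under 0.05. *Dnaja1* measured 240.2, 126 and 655 CPM in F4/80high and 239, 171 and 972 CPM in F4/80low TAMs. It was lower in F4/80high TAMs in replicates 2 and 3 and nearly equal in replicate 1, with a log2 fold change of -0.34 with a 95% interval of -0.78 to 0.11 (adjusted p = 0.642). *Dnaja2* measured 143, 173 and 166 CPM in F4/80high and 142, 144 and 147 CPM in F4/80low TAMs and varied least of the family between libraries. *Dnaja3*, the mitochondrial member, measured 31.6, 35.9 and 23.00 CPM in F4/80high and 27.1, 33.3 and 18.9 CPM in F4/80low TAMs, and like *Dnaja2* was higher in F4/80high TAMs in each pair, at 0.20 (SE 0.24, adjusted p = 0.845) and 0.15 (SE 0.19, adjusted p = 0.859). In pair 1 *Dnaja2* was higher by 0.0092 on the log2 scale only.

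*Dnajb1* (HSP40), the inducible partner of HSP70 and a standard readout of HSF1, measured 204, 77.8 and 27.7 CPM in F4/80high and 165, 87.5 and 38.8 CPM in F4/80low TAMs. Its log2 fold change between subsets was -0.11 with a 95% interval of -0.61 to 0.40 (adjusted p = 0.926), and the sign became positive in the fit without the replicate block (0.09) and without replicate 3 (0.07). The ER members *Dnajb9* (ERdj4) and *Dnajb11* (ERdj3), which work with BiP, measured 72.6, 67.4 and 58.6 CPM in F4/80high and 79.9, 45.3 and 52.04 CPM in F4/80low TAMs and 125, 140.3 and 39.95 CPM in F4/80high and 115, 131 and 46.8 CPM in F4/80low TAMs respectively. Neither differed beyond its spread, at 0.20 (SE 0.23, adjusted p = 0.832) and 0.00026 (SE 0.21, adjusted p = 1). *Dnajb13*, a gene of cilia and sperm tails, measured 8.62, 14.8 and 15.7 CPM in F4/80high and 4.63, 9.68 and 9.79 CPM in F4/80low TAMs and was higher in F4/80high TAMs in each pair, at 0.73 (SE 0.32, adjusted p = 0.512), but 11.2% of its exon bases overlap exons of the protein-coding gene *Ucp2* on the other strand. *Dnajb14*, an ER membrane protein, measured 36.4, 55.8 and 102 CPM in F4/80high and 31.8, 36.3 and 79.9 CPM in F4/80low TAMs and was also higher in each pair, at 0.39 (SE 0.21, adjusted p = 0.623). *Dnajb2*, a neuronal form, measured 15.2, 14.8 and 15.98 CPM in F4/80high and 19.9, 22.7 and 14.1 CPM in F4/80low TAMs with -0.28 (SE 0.29, adjusted p = 0.808). *Dnajb7* was at 0, 0 and 6.69 CPM in F4/80high and 0.200, 0.0246 and 12.6 CPM in F4/80low TAMs, almost wholly in replicate 3, and lies inside an intron of *Xpnpep3*. Its log2 fold change of -1.93 (SE 0.96, adjusted p = 0.579) was that of a gene with 8 and 1 counts in F4/80low replicates 1 and 2 against 0 in their F4/80high partners, the difference in pair 3 was -0.91, and the fitted value ranged from -4.96 without replicate 3 to -0.97 with no replicate block.

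DNAJC genes, whose products place HSP70 at particular sites in the cell, were the largest group. Of 24, 18 had positive and 6 negative log2 fold changes, with a median of 0.17, and none had an unadjusted p under 0.05. *Dnajc9*, a histone chaperone, measured 44.5, 48.5 and 39.5 CPM in F4/80high and 26.8, 43.4 and 23.9 CPM in F4/80low TAMs and was higher in F4/80high TAMs in each pair, at 0.54 (SE 0.24, adjusted p = 0.519). *Dnajc18*, an ER membrane protein, measured 10.3, 16.5 and 313 CPM in F4/80high and 8.09, 12.6 and 217 CPM in F4/80low TAMs, higher in each pair at 0.42 (SE 0.20, adjusted p = 0.539), with both replicate 3 libraries more than 10-fold above the others. *Dnajc3* (p58IPK), which binds BiP and restrains ER stress kinases, measured 118, 164 and 117 CPM in F4/80high and 109, 114 and 78.7 CPM in F4/80low TAMs and was the one gene of the 83 with every F4/80high library above every F4/80low library, at 0.40 (SE 0.20, adjusted p = 0.577). *Dnajc3* was picked for that pattern after its values were seen. *Dnajc15*, of the mitochondrial import motor, measured 43.1, 38.03 and 11.3 CPM in F4/80high and 26.9, 41.2 and 11.96 CPM in F4/80low TAMs, and *Dnajc8*, of the splicing machinery, 121, 116 and 36.4 CPM in F4/80high and 106, 118 and 39.9 CPM in F4/80low TAMs. These leading genes by level gave 0.17 (SE 0.27, adjusted p = 0.894) and 0.01 (SE 0.20, adjusted p = 0.997), with no common direction over the pairs. On the negative side stood *Dnajc10* (ERdj5), a disulfide reductase of the ER, at 62.02, 109 and 56.7 CPM in F4/80high and 102, 80.2 and 60.2 CPM in F4/80low TAMs, and *Dnajc14*, at 39.2, 49.2 and 44.3 CPM in F4/80high and 66.97, 43.7 and 37.1 CPM in F4/80low TAMs. Their log2 fold changes, -0.12 (SE 0.26, adjusted p = 0.929) and -0.12 (SE 0.27, adjusted p = 0.935), turned positive without replicate 1 (0.18 and 0.21).

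The CCT ring, which folds actin and tubulin, gave 6 positive values of 7. *Cct2* measured 141, 149 and 308 CPM in F4/80high and 114, 166 and 232 CPM in F4/80low TAMs, *Cct7* 199, 202 and 55.4 CPM in F4/80high and 160.4, 199.5 and 42.7 CPM in F4/80low TAMs and *Cct5* 189.8, 242 and 61.3 CPM in F4/80high and 179, 248 and 52.5 CPM in F4/80low TAMs. In replicate 3 *Cct2* was above and *Cct5* and *Cct7* were below every other library, and all 3 code for subunits of the same ring. With scaling by library size alone *Cct5* and *Cct7* stayed below, while *Cct2* in replicate 3 was 0.0354 from replicate 1 on the log2 scale and no longer above. *Cct3* measured 161, 190.3 and 86.8 CPM in F4/80high and 134, 161 and 84.1 CPM in F4/80low TAMs. The log2 fold changes between subsets stayed within 0.06 to 0.23 for the 6 abundant subunits, with 0.23 with a 95% interval of -0.21 to 0.67 (adjusted p = 0.76) for *Cct7* and 0.18 (SE 0.19, adjusted p = 0.813) for *Cct3*, both higher in F4/80high TAMs in each pair. In pair 2 *Cct7* was higher by 0.015 on the log2 scale only. *Cct6b*, the testis form, had at most 0.319 CPM in any library and gave a log2 fold change of -0.35 with a 95% interval of -4.32 to 3.63 (adjusted p = 0.977). BAG proteins release HSP70 from its nucleotide, and of the 6 genes 2 had positive and 4 negative values. *Bag1* measured 138, 176 and 73.2 CPM in F4/80high and 122, 166 and 75.4 CPM in F4/80low TAMs, at 0.08 (SE 0.19, adjusted p = 0.94). *Bag6*, which guides tail-anchored and faulty chains, measured 52.4, 47.4 and 61.01 CPM in F4/80high and 51.5, 43.8 and 73.1 CPM in F4/80low TAMs, and *Bag5* 21.3, 24.2 and 8.10 CPM in F4/80high and 22.05, 25.9 and 5.58 CPM in F4/80low TAMs. *Bag2*, which blocks the ubiquitin ligase CHIP, measured 7.13, 6.38 and 6.15 CPM in F4/80high and 6.84, 12.1 and 5.69 CPM in F4/80low TAMs, and *Bag4* 6.45, 5.45 and 5.83 CPM in F4/80high and 5.81, 9.09 and 12.9 CPM in F4/80low TAMs. The log2 fold changes of *Bag6*, *Bag5*, *Bag2* and *Bag4* were -0.04 (SE 0.21, adjusted p = 0.978), 0.11 (SE 0.28, adjusted p = 0.945), -0.26 (SE 0.41, adjusted p = 0.895) and -0.57 (SE 0.42, adjusted p = 0.72), and none had one direction in all 3 pairs.

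Many more of these genes differed between experiments than between subsets. With the subset held, 36 of the 83 genes (43.4%) differed between replicate numbers at an adjusted p under 0.05 (quasi-likelihood F test of both replicate terms in edgeR), against 38.2% of all genes tested, so the share among chaperones was near that of all genes. In all 36, both replicate 3 libraries lay outside the range of the other 4, below it in 23 and above it in 13. Without regard to the test, both replicate 3 libraries were below the others in 35 genes (42.2%, against 32.0% of all) and above them in 17 (20.5%, against 24.6% of all). These directions follow the TMM scaling, under which the median of all genes tested was -0.35 between replicates 3 and 1 on the log2 scale. With library size alone that median was -1.39, and of the 55 chaperone genes then past the threshold both replicate 3 libraries were below the others in 50 and above them in 4. The replicate number stands for the experiment, its sort and its sequencing together, and these cannot be told apart. Across the 70 genes whose log2 CPM averaged 2 or more, Spearman's rho of gene length with the difference of replicate 3 from replicate 1 was 0.36, beside 0.44 across 10089 genes of that level. The genes of one library share its depth and RNA quality and are not independent.

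Under TMM, genes known to respond to heat did not share a direction in replicate 3. Low there, by log2 fold change against replicate 1 and with the adjusted p of the replicate terms, were *Hspa1b* at -4.14 (adjusted p = 4.75e-05), *Hspb1* at -4.05 (adjusted p = 0.0144), *Dnaja4*, an inducible cytosolic J-protein, at -3.61 (adjusted p = 0.0424), *Hspa1a* at -3.02 (adjusted p = 4.47e-04) and *Dnajb1* at -2.48 (adjusted p = 4.89e-04). Among them *Dnaja4* overlaps exons of the protein-coding gene *Wdr61*, on the other strand, over 44.1% of its exon bases. High there by the same scaling were *Dnaja1* at 1.73 (adjusted p = 1.60e-04), *Dnajb6* at 1.15 (adjusted p = 0.0062) and *Hsph1* at 0.96 (adjusted p = 0.00112). *Bag3* at -0.29 (adjusted p = 0.799), *Hspd1* and *Hspe1* did not pass the test. A heat shock element stood in the promoters of all these high genes. It also stood in those of *Bag3*, *Hspd1*, *Hspe1* and the low *Hspa1a*, *Hspa1b*, *Hspb1* and *Dnaja4*. Outside the genes picked here, it stood in those of *Cct2*, *Dnajc27*, *Hspb6* and *Hspb8*. With library size alone *Dnaja1*, at 0.68, still lay above the others in both replicate 3 libraries (adjusted p of the replicate terms = 0.00226). *Hsph1*, at -0.0913, was no longer high, while the 5 low genes lay between -5.17 and -3.54. Relative to the median of all genes, *Dnaja1* and *Hsph1* stood at 2.08 and 1.30 under TMM and 2.07 and 1.30 with library size alone. Of the ER chaperones, *Hspa5* at -2.40 (adjusted p = 1.50e-04), *Dnajb11* at -1.47 (adjusted p = 0.00196) and *Hsp90b1* at -0.55 (adjusted p = 0.0141) were low, *Hsp90b1* only -0.20 from the median of all genes. *Dnajc3* at -0.24, *Dnajb9* at -0.47 and *Dnajc10* at -0.47 did not pass (adjusted p = 0.285, 0.315 and 0.227). Of the 23 genes of the ER list read below, both replicate 3 libraries were below the others in 13 and above in 5. Among the 5 was *Canx* at 3.58 (adjusted p = 6.40e-06). In the cytosol *Hsp90ab1* at 1.31 (adjusted p = 0.00287) and *Hspa4*, an HSP110, at 1.64 (adjusted p = 0.00123) were high and *Hspa8* at -1.22 (adjusted p = 0.00871) was low. With library size alone *Hsp90ab1* at 0.27 and *Hspa4* at 0.60 no longer passed the test (adjusted p = 0.62 and 0.0906). *Dnajc18* at 4.84 (adjusted p = 2.25e-06) and *Hsf2* at 3.93 (adjusted p = 1.94e-05) lay far above, the latter in the opposite direction to *Hsf1* at -1.35 (adjusted p = 0.0176).

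**Figure D4:**
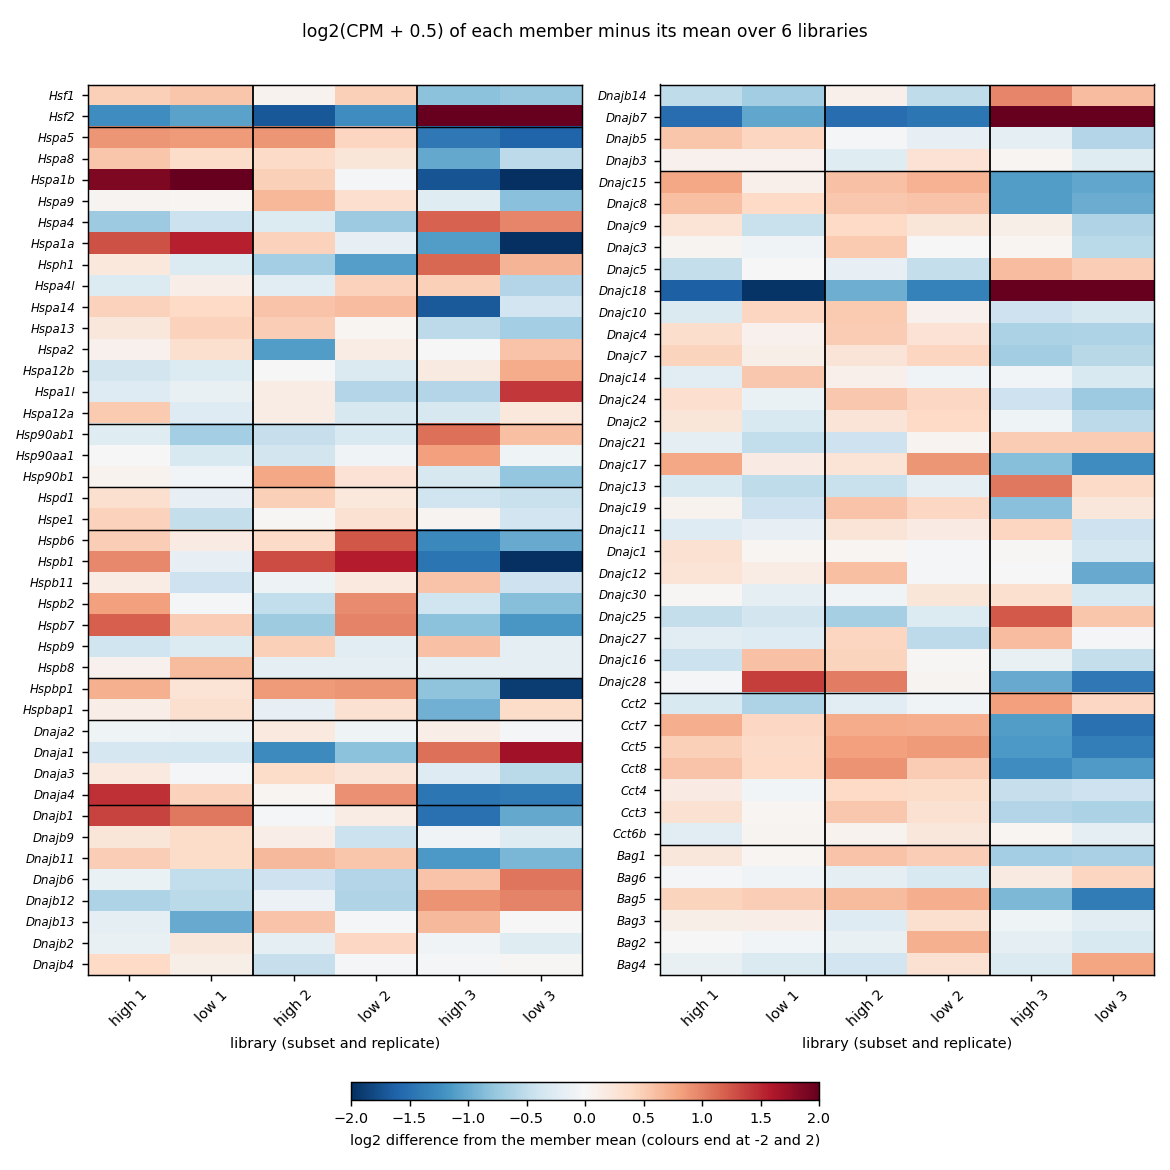
Difference of log2(CPM + 0.5) from the gene's mean over 6 libraries (colour, blue low and red high) for the 83 genes in rows, grouped by role between the black lines, and the libraries in columns ordered by replicate. The 2 libraries of one replicate resemble each other, replicate 3 differs from the rest, and *Hspa1a*, *Hspa1b* and *Dnajb1* are reddest in replicate 1.

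Replicates 1 and 2, which do not carry the shift of replicate 3, were also compared with the subset held. This contrast was chosen after its values were seen. No gene of the 83 passed an adjusted p under 0.05 (edgeR's quasi-likelihood test), against 14 of 14776 (0.0947%), and 8 (9.64%) had an unadjusted p under 0.05, against 8.19% of all genes, a share near the background. The 5 lowest p were those of *Hspa1b*, *Dnajb1*, *Hspa1a*, *Hsph1* and *Dnaja1*, all of them lower in replicate 2, by 1.76, 1.17, 1.30, 0.87 and 0.72 on the log2 scale. *Hspa1b* came nearest, at an adjusted p of 0.0749, which became 0.0324 in a fit without replicate 3 and 0.0393 with scaling by library size alone. In both replicate 2 libraries each of these 5 genes was below both replicate 1 libraries, but the 5 were picked by their p in this same contrast. The share of all genes with that pattern was not counted, so it adds no support. The other 3 of the 8 were higher in replicate 2, *Dnajc18* by 0.66, *Dnajb13* by 0.92 and *Hsp90b1* by 0.53. Of the ER chaperones named for replicate 3, *Hspa5* at -0.22 and *Dnajb9* at -0.46 were lower in replicate 2. *Hsp90b1* at 0.53, *Dnajc3* at 0.27, *Dnajc10* at 0.23 and *Dnajb11* at 0.17 were higher. The 23 genes of the ER list had a median of 0.16. The median over the 83 genes was 0.16, beside -0.02 over all genes tested. Between replicates 2 and 1 cell type markers had medians of -3.30 for mast cells and basophils, -1.63 for dendritic cells, -1.45 for neutrophils, -0.90 for fibroblasts, -0.56 for T and NK cells, 0.67 for macrophages and 2.44 for erythroid cells. Immediate early genes had a median of -0.42, and the part of any of these in the chaperone values was not tested.

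**Figure D5:**
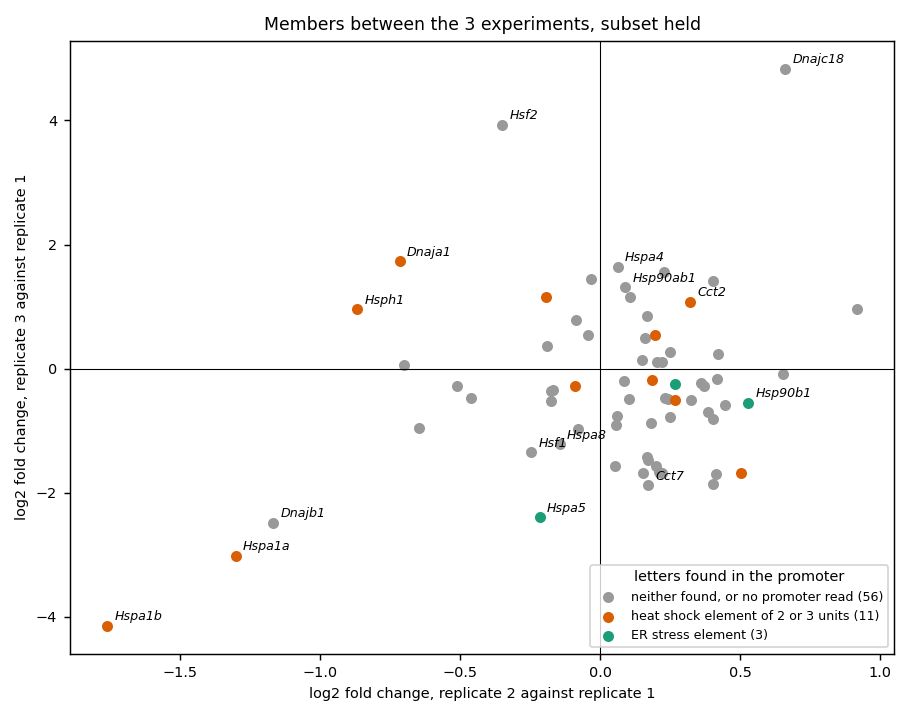
Log2 fold change of replicate 2 (horizontal axis) and of replicate 3 (vertical axis) against replicate 1, with the subset held and TMM scaling, for the same 70 genes as in the plot of intervals, coloured by the letters found in the promoter. *Hspa1a*, *Hspa1b* and *Dnajb1* lie low on both axes, *Hsph1* and *Dnaja1* low on the first and high on the second (*Hsph1* at -0.0913 on the second with library size alone), and *Dnajc18* and *Hsf2* at the top.

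Grouped by the promoter letters shown at the start, the 14 genes with GAANNTTC had a median log2 fold change between subsets of 0.23, with 0.33, -0.08 and 0.27 in pairs 1, 2 and 3, and 10 of 14 were positive. The 54 without it had a median of 0.10. Between replicates 2 and 1 the medians were -0.14 and 0.17. The 3 genes with the ER stress element, *Hspa5*, *Hsp90b1* and *Dnajc3*, were higher in F4/80high TAMs in all 3 pairs, with a median of 0.36 and 0.12, 0.49 and 0.46 in pairs 1, 2 and 3. These medians are descriptions without a test, and they share the libraries with the values above.

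Genes that work with these chaperones but carry other names were read from 3 lists. Of 33 co-chaperones and folding partners tested, such as prefoldins and HSP90 co-chaperones, 0 passed the thresholds in edgeR's quasi-likelihood test and 1 had an unadjusted p under 0.05, with 25 positive and 8 negative values and a median of 0.13. It was *Chordc1*, an HSP90 co-chaperone that heat shock induces, at 55.1, 66.4 and 32.5 CPM in F4/80high and 36.7, 46.1 and 22.7 CPM in F4/80low TAMs, with a log2 fold change of 0.55 (SE 0.22, adjusted p = 0.449). *Sil1*, the exchange factor of BiP, was at 0.47 (SE 0.26, adjusted p = 0.631), and on the negative side *Serpinh1*, the collagen chaperone HSP47 of fibroblasts, was at -0.46 (SE 0.24, adjusted p = 0.608) and *Unc45a*, a myosin chaperone, at -0.27 (SE 0.23, adjusted p = 0.767). Fibroblast markers, 7 of 7 negative with a median of -0.57, had the same sign as *Serpinh1*, and their part in its value was not tested.

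Of 23 genes of the ER unfolded protein response, 0 passed, and 2 had an unadjusted p under 0.05 with higher and 1 with lower values in F4/80high TAMs, around a median of 0.04. *Sdf2l1*, a partner of BiP, was at 0.58 (SE 0.21, adjusted p = 0.385) and *Calr*, the lectin chaperone calreticulin, at 0.51 (SE 0.21, adjusted p = 0.452), both higher in F4/80high TAMs in each pair. *Ern1*, which codes for the stress sensor IRE1, was at -0.72 (SE 0.26, adjusted p = 0.396) and *Atf4*, the effector of the PERK branch, at -0.30 (SE 0.19, adjusted p = 0.676). Of 21 immediate early genes, which like heat shock genes are known to respond to cell handling, 0 passed and 9 had an unadjusted p under 0.05, all 9 lower in F4/80high TAMs, with a median of -0.28. *Btg2*, an antiproliferative gene, measured 980.1, 673 and 6216 CPM in F4/80high and 1620.2, 1581 and 9464 CPM in F4/80low TAMs, at -0.85 (SE 0.18, adjusted p = 0.0909), and *Fosl1*, an AP-1 subunit, was at -1.16 (SE 0.26, adjusted p = 0.116). On the other side, *Klf6* was at 0.29 (SE 0.16, adjusted p = 0.636) and *Fos* at 0.24 (SE 0.15, adjusted p = 0.664).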

How the data were processed

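RNA of sorted TAMs was sequenced after poly-A selection. The authors deposited raw read counts for each gene and library, with gene length and biotype, and no normalization. The aligner, counting rule, strand and annotation are not given in the sources used here. In R 4.3.3, edgeR 4.0.16 was fitted to them (TMM, glmQLFit and glmQLFTest, terms for replicate number and subset) on 14776 protein-coding genes with at least 10 counts, after a test on simulated data, with Benjamini-Hochberg adjustment over all of them. DESeq2 1.42.0 served as an alternative. Replicate numbers were taken as pairs because the study sorted both subsets in each of 3 experiments. Libraries of one number deviated together from the mean of their subset. The correlations were 0.745, 0.729 and 0.907 for numbers 1, 2 and 3 over 10089 genes with an average log2 CPM from 2 up. Both libraries of number 3 shift these means, so those of numbers 1 and 2 can deviate together without being matched. Mismatched numbers were not compared in this way, so 0.745 and 0.729 do not show pairing. Between whole libraries, Spearman's rho of library 1 of the high subset was 0.976 with low library 1 and 0.977 with low library 2. For library 2 of the high subset it was 0.960 with low library 2 and 0.946 with low library 1. The study sorted the subsets from pooled tumors, so a number is not one animal. The p-values between subsets rest on a spread of within-pair differences that edgeR moderates, gene by gene, towards that of all genes. They therefore do not rest on the 3 pairs of the gene alone. They do not measure the spread between animals. The members, lists and tests were chosen with earlier results of these data known, and the contrast of replicates 2 and 1 after its values were seen. Named genes were, in each role group, the 3 highest by RPKM and the 2 lowest p in each direction, plus 15 well-known chaperones and factors, and 2 in each direction of each list. *Dnajc3*, *Dnaja4*, *Hspa4*, *Dnajb6*, *Bag3* and, from the ER list, *Canx* were added later. All 83 gene identifiers matched GENCODE M21 (GRCm38), 53 with equal exon length. No copy of a library was found. Protein comparisons were not made. Intervals cover the fitted spread. A count of 3 equals 0.0582 to 0.342 CPM.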

Additional observations from a re-analysis of the deposited data

Results flagged for a closer look

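Rows that carry a name of the family but another biotype lie outside the comparisons and still held counts. *Cct6a*, a subunit of the CCT ring listed as a processed transcript, had 31907 counts over the 6 libraries, at 156, 221 and 61.8 CPM in F4/80high and 153, 176 and 52.5 CPM in F4/80low TAMs, and a log2 fold change of 0.22 (adjusted p = 0.836, edgeR with all biotypes), with both replicate 3 libraries lowest as for *Cct5* and *Cct7*. The processed pseudogenes *Hspd1-ps3*, *Dnajc19-ps*, *Hspa9-ps1*, *Hspe1-ps2* and *Hspe1-ps3* had 1461, 829, 105, 12 and 4 counts over the 6 libraries. Of the 12 counts of *Hspe1-ps2*, 11 came from F4/80high replicate 3. Reads of such copies can be shared with the parent genes, and this was not tested.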

How the results depend on the processing

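No gene of the 83 passed both thresholds under any of the 11 alternative fits or with the adjusted p alone. The count with an unadjusted p under 0.05, 1 in the reported fit, was 0 with no replicate block and 0 with the 2-level batch, 2 with RLE, 2 with library size alone, 2 with filterByExpr, 3 with all biotypes, 2 in DESeq2 with the replicate block, and 0 to 4 when one replicate pair was left out, 0 without replicate 3 and 4 without replicate 2. With the replicate block left out, 0 of 14776 genes passed and 1.76% had an unadjusted p under 0.05. The median log2 fold change of the 83 ranged from 0.09 (no replicate block) to 0.15 (library size alone), a move of less than the SD of 0.064 between pairs. The median of all genes between subsets shifted by less than 0.1 under each scaling. Genes that differed between replicate numbers rose from 36 to 55 with library size alone, where 50 in place of 23 had both replicate 3 libraries below and 4 in place of 13 above, *Hsph1* turned to -0.0913 against replicate 1, and *Hsp90ab1*, *Hspa4* and *Cct2* lost the call, as *Dnaja4* did with RLE (adjusted p = 0.0543). These scalings of the replicate 3 directions were added after the data were seen. Genes that differed between replicates 1 and 2 rose from 0 to 1 with library size alone and to 1 without replicate 3. Of 47 named genes in 11 fits, 21 of 514 values changed sign, in 15 genes, and no call changed. In 40 of the 47 the log2 fold change between subsets moved by over 1.5 times in at least one fit, and beside the genes with a changed sign the value neared 0 in *Hspa1a* and *Hspa1b* with no replicate block, *Hsp90aa1* without replicate 3 and *Hspe1* without replicate 1. With no replicate block the log2 fold change was 0.091 in *Dnajb1*, 0.049 in *Hsf2* and 0.044 in *Hspa8*. It was -0.0011 in *Dnajb11* with the 2-level batch and 0.0049 in *Bag6* with library size alone. With one replicate pair left out, the lowest and highest values were -0.43 and 0.047 for *Bag2*, -0.071 and 0.20 for *Bag5*, -0.15 and 0.070 for *Bag6*, -0.78 and 0.083 for *Cct6b*, -0.32 and 0.072 for *Dnajb1*, -0.088 and 0.11 for *Dnajb11*, -0.025 and 0.38 for *Dnajb9*, -0.45 and 0.18 for *Dnajc10*, -0.31 and 0.21 for *Dnajc14*, -0.097 and 0.29 for *Dnajc15*, -0.077 and 0.084 for *Dnajc8*, -0.66 and 0.012 for *Hspa14*, -0.19 and 0.17 for *Hspa8* and -0.64 and 0.011 for *Hspb6*. The cause of these changes was not tested. A filter by filterByExpr kept 76 of the 83 genes, and a minimum of 1 count 84 with *Dnajc6*. Depth limits genes at a few CPM, above all in replicate 3.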
